A study of Homo sapiens with 96 samples.

Results

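MDA-MB-231 is an established human breast cancer cell line with a mesenchymal, triple-negative phenotype. The comparison described here is the change in its mRNA over the late hours of flat (2D) culture when no inhibitor was present. It sets the 12 arrays labelled 24h and 48h (called late) against the 12 arrays labelled 05h and 1h (called early, the label 05h being read as 0.5 h), which are 24 of the 96 arrays of the study. The late minus early difference is called the drift. Each side held 4 arrays from each of 3 arms: cells given 10 ng/ml EGF after 30 min with the solvent DMSO (DMSO-EGF), cells given 10 ng/ml EGF alone (EGF), and untreated cells (control). Each side also held 6 arrays of series 2D04 and 6 of series 2D03, the 2 series named in the labels of 2D culture. All cells had been grown to 80% confluence and kept for 24 h in low serum before time 0. The wider study followed EGF responses with and without 10 uM of the MEK inhibitor U0126, in 2D and in 3D culture. From it, 8 arrays of 2D cells given U0126 and EGF and 12 arrays of 3D cells without inhibitor (1 series, 3D04), at the same times, were used for 2 further comparisons.

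Cholesterol and fatty acids are made by enzymes whose genes are switched on together by the SREBP transcription factors. SREBP precursors are held in the endoplasmic reticulum while membranes are rich in sterol and are released when sterol runs low. Immediate early genes such as EGR1 and FOS are transcribed within minutes of a growth factor or stress signal, largely through ERK and serum response factor, and are then quickly switched off. The transcription factor ATF4 raises amino acid transporters and biosynthetic enzymes when amino acids are scarce or protein folding is impaired.

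Each array was one sample of bulk RNA, and the deposited values are summarised probe-set intensities on a scale read here as log2. They are centred on a baseline that the sources used here do not state, so a value below 0 is not an absent transcript and levels are not compared between genes. Array medians lay between -0.06 and 0.03. The labels give repeats without saying that they were separate cultures, so the p-values measure the spread between these samples, which may be technical. Time after stimulation, time in low serum, cell density and age of the medium ran together and cannot be told apart, and in bulk RNA fewer cells of a kind cannot be told apart from less RNA per cell. The array's actin quality measure (5' minus 3' probe sets) also moved with the comparison: it was 0.04 to 0.16 on late and -0.11 to -0.01 on early arrays of 2D04, and 0.17 to 0.29 on late and 0.03 to 0.07 on early arrays of 2D03. The same measure for GAPDH overlapped between the windows: it was 0.02 to 0.12 on late and 0.02 to 0.1 on early arrays of 2D04. In 2D03 the GAPDH measure was -0.04 to 0.1 on late and -0.02 to 0.07 on early arrays. The part of RNA quality in the drift was not tested.

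Of 11884 genes, 4138 (34.8%) passed the test (limma, adjusted p under 0.05): 1861 were higher (15.7%) and 2277 lower (19.2%) in the late window, and the median drift over all genes was -0.0075. Most changes were small, since 54 of the genes that passed had changed at least 2-fold, 34 of them higher and 20 lower. Of the 4138 genes, 3966 had the same sign in both series and 3939 also in all 3 arms. They were called on the average over these same series and arms, so this agreement is no test. Over all 11884 genes, 3209 were higher and 3990 lower in both series. In 191 genes (1.61%) every late array was above every early array within both series, and in 346 (2.91%) every late array was below. Taking both series together, late and early arrays did not overlap in 80 raised genes (0.673%) and 107 lowered genes (0.9%). The 3 arrays of 1 series and time may share handling: averaging them left 1510 genes past the threshold, with 3 residual degrees of freedom, and treating each series and time as a random block left 2987. The other comparisons below were not refitted in these ways, so their counts and p-values do not allow for shared handling.

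On the probe sets used, the most raised gene was LSS, encoding lanosterol synthase, which closes the sterol rings during cholesterol synthesis. LSS ranged over 0.54, 1.33 and 1.75 (lowest, median and highest) on late arrays, against -1.22, -0.39 and 0.09 on early arrays, with no overlap. Its drift was 1.75 ± 0.11 (log2 difference ± SE, n = 12 arrays a side; limma adjusted p = 2.5e-10), a 3.36-fold rise. Its 3 probe sets gave drifts between 0.91 and 1.75, so the size and rank of the rise depend on the probe set while its direction does not. ALDOC, the aldolase isoform best known from brain, ranged over -1.11, -0.10 and 0.81 on late arrays, against -2.08, -1.68 and -1.46 on early arrays. These groups too did not overlap, and the drift was 1.57 ± 0.07 (limma adjusted p = 1.7e-12), 2.98-fold.

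S100A4 encodes a calcium-binding protein tied to motility and metastasis of breast cancer cells. It ranged over -1.26, -0.21 and 1.18 on late arrays, against -1.89, -1.46 and -1.11 on early arrays, so that the sides overlapped at their edges. The drift was 1.30 ± 0.20 (limma adjusted p = 2.2e-05), and it came mostly from one series: 2.11 in 2D04, where late and early arrays were apart, and 0.49 in 2D03, where they overlapped. EGR1, an immediate early transcription factor, moved the other way. It ranged over 0.12, 0.58 and 2.12 on late arrays, against 2.95, 3.29 and 3.47 on early arrays, with no overlap. EGR1 fell by 2.44 ± 0.10 on the log2 scale (limma adjusted p = 1.5e-12), 5.41-fold and the largest drift in either direction, and its 2 probe sets gave -2.45 and -2.44.

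**Figure D1:**
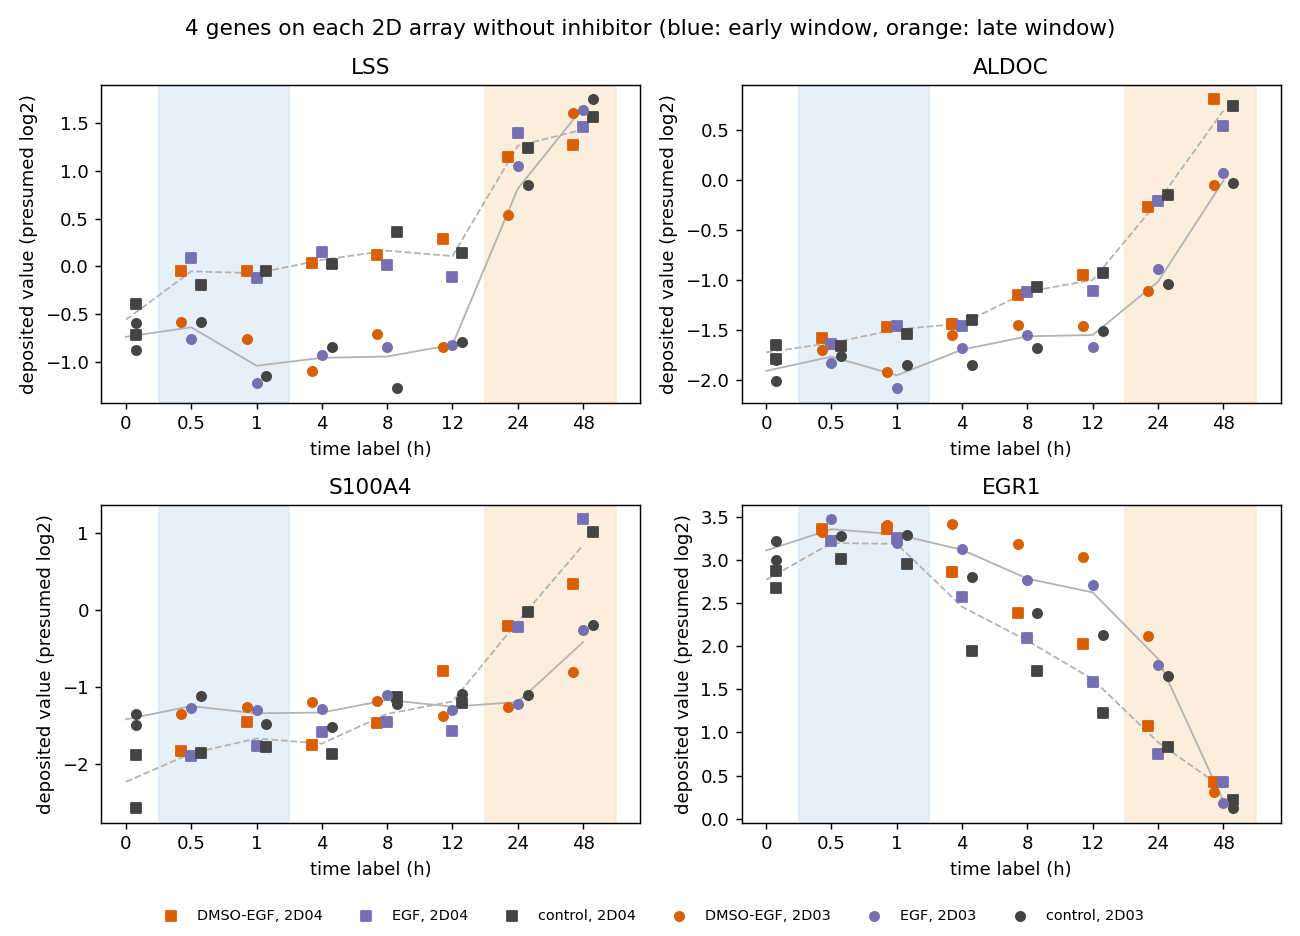
Deposited value (presumed log2, vertical axis) of LSS, ALDOC, S100A4 and EGR1 on every 2D array without inhibitor against the time label in hours (horizontal axis, one step per label), with colour for the arm, shape for the series and grey lines for the mean of each series. LSS stays near its early level until 12 h and is raised on every late array, the means of EGR1 are higher at 0.5 h than at 0 h and then lower at each label after 1 h than at the one before, and S100A4 rises mainly in series 2D04.

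The courses of these genes between the windows differed. At 4, 8, 12, 24 and 48 h, LSS averaged 0.01, 0.06, 0.09, 1.49 and 2.00 above its early mean, so almost all of its rise lay after 12 h. ALDOC was already up by 0.14, 0.37 and 0.44 at 4, 8 and 12 h, and by 1.10 at 24 h and 2.05 at 48 h. S100A4 stood at -0.00, 0.27, 0.31, 0.86 and 1.74 at the same times. EGR1 was lower at each successive time from 4 h on, at -0.47, -0.84, -1.14, -1.89 and -2.98. The 4, 8 and 12 h values are given as a description and were not tested.

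Genes of cholesterol synthesis and uptake rose almost as a block. Of the 19 measured members of the list (of 25 entries), 18 rose and 1 fell, where 15.7% of all genes rose, and the median drift was 0.94, against -0.0075 over all genes. In all 18 of the raised genes every late array exceeded every early array within each series, as it did in 1.61% of all genes. The rise ran the length of the pathway. Among the early steps, ACAT2, which joins acetyl-CoA units, rose by 1.05 and HMGCS1, the HMG-CoA synthase, by 1.19. In the mevalonate segment MVK rose by 0.79 and MVD, the mevalonate diphosphate decarboxylase, by 1.28, while the intervening kinase PMVK fell by 0.14 (limma adjusted p = 0.029), the single member to do so. The isoprenoid enzymes IDI1 and FDPS rose by 0.80 and 0.89. With the arms averaged PMVK did not pass (adjusted p = 0.25).

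Past the branch point, SQLE, the epoxidase that commits squalene to sterols, rose by 1.02, CYP51A1 by 1.00 and the sterol isomerase EBP by 1.16. TM7SF2, a sterol reductase, ranged over -1.76, -0.94 and -0.58 on late arrays, against -3.23, -2.79 and -2.43 on early arrays. Its drift of 1.71 ± 0.09 (limma adjusted p = 1.2e-11) was second to that of LSS on the probe sets used. DHCR7, which makes the final reduction to cholesterol, rose by 1.32. Probe sets gave different sizes for some of these, 0.50 to 1.16 for EBP, 0.57 to 1.00 for CYP51A1 and 0.43 to 0.89 for FDPS. The regulators moved in the same direction: SREBF2, the gene of the sterol-responsive SREBP, rose by 0.72, and INSIG1, which retains SREBP in the endoplasmic reticulum and is itself an SREBP target, by 0.94. TMEM97, an endoplasmic reticulum protein linked to cholesterol handling and not on the list, rose by 1.27.

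Fatty acid synthesis rose less evenly, with 8 of 10 measured members higher, 0 lower and a median of 0.69. SCD, the desaturase that makes monounsaturated fatty acids, ranged over 0.04, 0.93 and 1.04 on late arrays, against -1.30, -0.54 and -0.17 on early arrays, a drift of 1.43 ± 0.08 (limma adjusted p = 3e-11). The 3 probe sets of SCD gave drifts between 0.88 and 1.43. FADS2 rose by 0.95, ELOVL6 by 0.78, LPIN1 by 0.71 and ACLY, which supplies cytosolic acetyl-CoA, by 0.66. FASN, the fatty acid synthase, rose by 1.09 on one probe set and had -0.08 on its other. SREBF1, the gene of the SREBP that governs fatty acid synthesis, and ME1, which supplies NADPH, did not pass the test (0.12 and 0.04, limma adjusted p = 0.13 and 0.55). Genes of cholesterol efflux and storage were counted apart, with 2 of 9 higher and 2 lower, where 15.7% of all genes rose and 19.2% fell: the transporter ABCA1 had -0.02 (limma adjusted p = 0.78) and the esterifying enzyme SOAT1 fell by 0.21. The receptor gene SCARB1 was higher by 0.18 on the probe set used, but its 3 probe sets spanned -0.13 to 0.18 and their mean was -0.005. None of these 4 calls passed with the arms averaged (adjusted p = 0.14 for both SOAT1 and SCARB1).

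**Figure D2:**
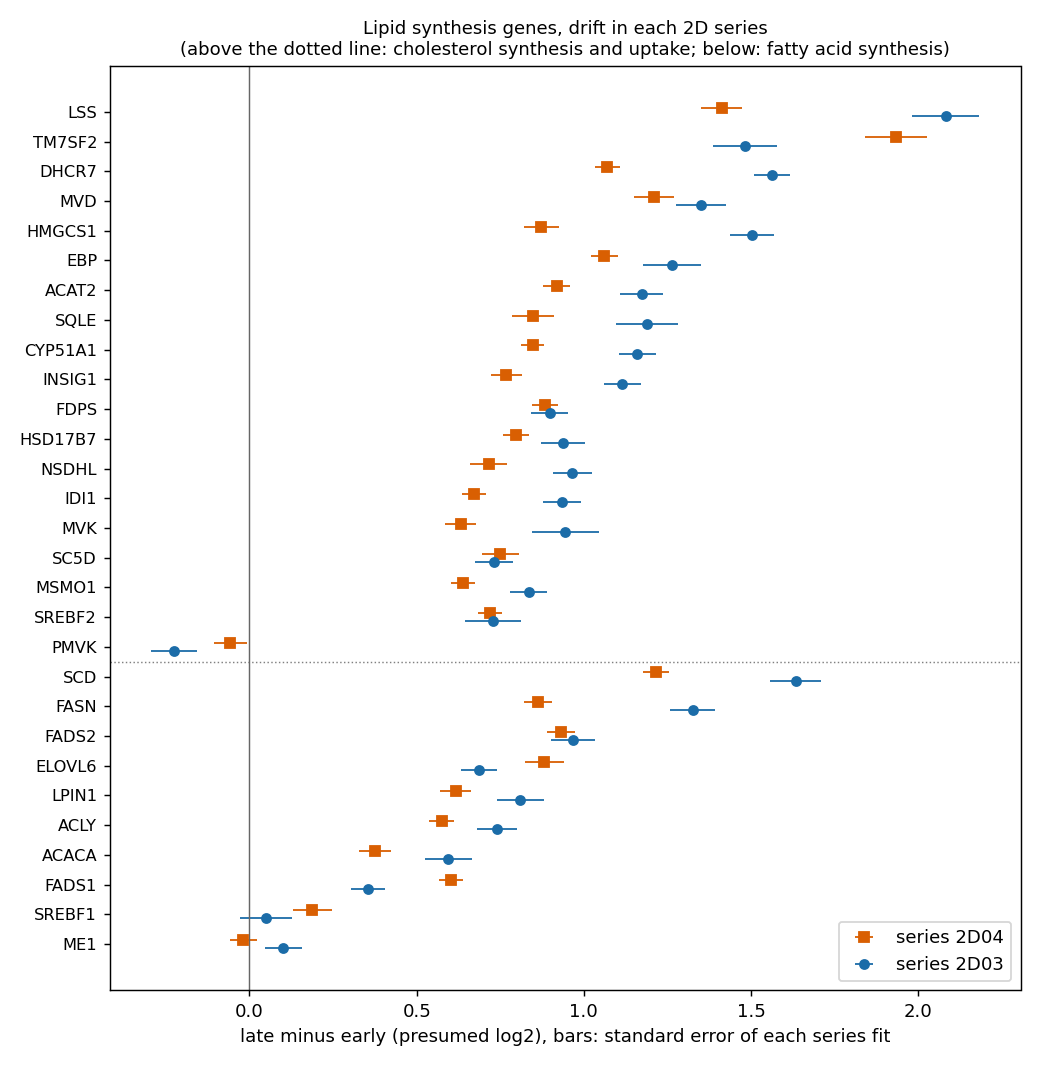
Drift (late minus early, presumed log2, horizontal axis) of each measured lipid synthesis gene in series 2D04 (squares) and 2D03 (circles), with bars for the standard error in each series (n = 6 arrays a side); cholesterol genes lie above the dotted line and fatty acid genes below it. Every cholesterol gene except PMVK is right of 0 in both series, and SREBF1 and ME1 sit near 0.

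The upstream windows of 4 strongly raised cholesterol genes and of EGR1 are shown because the first share short promoter words and the last carries a different one. Sequences are the 250 bases before the annotated start, 5' to 3' on the gene's strand, from RefSeq on GRCh38.p14. Capitals mark the CCAAT box (CCAAT or its reverse ATTGG), which binds NF-Y, a partner of SREBP, and in EGR1 the CArG box, which binds serum response factor.
LSS, chr21:46228775-46229024, minus strand: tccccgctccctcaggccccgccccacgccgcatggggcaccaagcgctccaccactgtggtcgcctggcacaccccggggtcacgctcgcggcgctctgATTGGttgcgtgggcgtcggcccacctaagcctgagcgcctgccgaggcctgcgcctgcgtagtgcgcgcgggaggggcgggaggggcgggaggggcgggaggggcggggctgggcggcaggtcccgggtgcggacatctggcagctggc
TM7SF2, chr11:65111622-65111871, plus strand: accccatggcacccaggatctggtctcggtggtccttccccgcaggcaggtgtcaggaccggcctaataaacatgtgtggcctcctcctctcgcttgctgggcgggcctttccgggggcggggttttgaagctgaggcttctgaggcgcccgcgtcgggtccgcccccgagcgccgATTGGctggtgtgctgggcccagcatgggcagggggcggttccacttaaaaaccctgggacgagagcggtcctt
MVD, chr16:88663092-88663341, minus strand: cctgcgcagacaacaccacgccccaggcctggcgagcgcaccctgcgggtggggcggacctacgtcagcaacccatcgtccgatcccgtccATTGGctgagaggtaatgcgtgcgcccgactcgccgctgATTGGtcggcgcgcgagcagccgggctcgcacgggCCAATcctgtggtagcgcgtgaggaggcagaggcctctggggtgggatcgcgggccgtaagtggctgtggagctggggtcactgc
HMGCS1, chr5:43313413-43313662, minus strand: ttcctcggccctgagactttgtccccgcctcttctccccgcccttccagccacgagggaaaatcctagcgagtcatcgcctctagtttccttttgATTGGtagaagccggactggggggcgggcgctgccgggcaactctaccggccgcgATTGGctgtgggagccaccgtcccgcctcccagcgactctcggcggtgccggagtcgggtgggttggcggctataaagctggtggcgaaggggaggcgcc
EGR1, chr5:138465229-138465478, plus strand: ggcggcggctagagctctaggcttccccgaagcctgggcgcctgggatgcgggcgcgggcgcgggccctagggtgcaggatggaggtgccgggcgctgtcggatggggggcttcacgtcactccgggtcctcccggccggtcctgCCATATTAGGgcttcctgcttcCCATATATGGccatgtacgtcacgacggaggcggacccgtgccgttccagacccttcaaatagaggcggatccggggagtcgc
A CCAAT box was found in 14 of the 17 cholesterol gene windows that could be matched (82.4%), against 3437 of the 9593 windows of all measured genes (35.8%). More than 1 was found in 8 of the 17 (47.1%), against 1203 of the 9593 (12.5%). Among fatty acid genes 2 of 9 windows held one (22.2%), those of ACLY and SCD. The sterol element core CACCCCAC, or its reverse GTGGGGTG, was present in 1 of the 17 cholesterol windows, that of SREBF2 (5.88%), against 242 of the 9593 (2.52%). EGR1 held 2 CArG boxes and was the only 1 of 14 immediate early gene windows with any, against 113 of the 9593 (1.18%). A match describes the letters of these windows only.

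Immediate early genes were mostly lower late. Of 20 measured members 12 fell, 1 rose and 7 did not pass the test, where 15.7% of all genes rose and 19.2% fell. The median was -0.29. FOS, the partner of JUN in AP-1, ranged over -0.90, -0.70 and 0.02 on late arrays, against 0.25, 0.58 and 1.61 on early arrays, without overlap, and fell by 1.32 ± 0.09 (limma adjusted p = 5.7e-10). DUSP1, a phosphatase of stress and MAP kinases, fell by 0.97, the stress-induced factor ATF3 by 0.91, IER2 by 0.75 and the survival gene MCL1 by 0.71. NR4A2, a nuclear receptor, rose by 0.28. JUN and MYC did not pass (-0.15 and 0.05, limma adjusted p = 0.28 and 0.57). EGR1 was high before any EGF was given, averaging 2.94 on the 4 untreated 2D arrays at 0 h.

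Of 14 measured genes that report sustained ERK output, 8 rose and 3 fell, with a median of 0.25, against 5 and 2 with a random block. Over all genes 15.7% rose and 19.2% fell, so the count that fell was near the all-gene share. The ERK phosphatase DUSP4 rose by 0.92, the feedback inhibitor SPRY4 by 0.63 and SPRY1 by 0.54, the phosphatase DUSP6 by 0.33 and cyclin D1 (CCND1) by 0.30, while the AP-1 subunit FOSL1 fell by 0.38. The list's median was 0.47 in 2D04 and -0.09 in 2D03, and with the arms averaged 3 members were higher and 0 lower: SPRY4, DUSP6 and FOSL1 then had adjusted p of 0.053, 0.34 and 0.075. DUSP4 and SPRY4 each had a second probe set with a drift of 0.30 and 0.06. Of 16 inflammatory genes 6 fell and 1 rose, against 2 and 1 with the arms averaged. The neutrophil chemokine CXCL8 ranged over 0.49, 1.55 and 3.91 on late arrays, against 1.96, 3.29 and 4.45 on early arrays, and despite this overlap fell by 1.39 ± 0.18 within its blocks (limma adjusted p = 3.7e-06). CXCL2, a related chemokine, fell by 1.53, and the monocyte chemokine CCL2 rose by 0.95.

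All 26 measured G2/M and mitosis genes fell, where 19.2% of all genes did, with a median of -0.52. The mitotic kinase PLK1 fell by 0.81, the kinesins KIF23 and KIF2C by 0.77 and 0.70, the spindle checkpoint gene MAD2L1 by 0.60, cyclin B1 (CCNB1) by 0.52 and CDC20, an activator of the anaphase-promoting complex, by 0.53. With the arms averaged, 19 of the 26 were lower. Of the 26 G1/S and replication genes 12 fell and 1 rose, with a median of -0.14, against 10 and 0 with a random block and 4 and 0 with the arms averaged. The ribonucleotide reductase subunit RRM2 fell by 0.54 and cyclin A2 (CCNA2) by 0.44, while E2F1 and the helicase subunit MCM6 did not pass (-0.01 and 0.01, limma adjusted p = 0.92 and 0.94).

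Among CDK inhibitors and quiescence genes 7 of 17 rose and 3 fell, with a median of 0.08. Over all genes 15.7% rose and 19.2% fell, so the count that fell was near the all-gene share. With the arms averaged 4 rose and 3 fell. The inhibitors CDKN1C, CDKN1A and CDKN1B rose by 0.55, 0.40 and 0.20, of which CDKN1A and CDKN1B did not pass with the arms averaged (adjusted p = 0.096 and 0.22). The 3 that fell were GADD45A, a growth arrest gene, by 1.22, TXNIP, a thioredoxin-binding regulator of glucose uptake, by 1.04 and BTG1 by 0.49. Ribosome biogenesis genes were lower in 12 of 15 cases and higher in 0, with a median of -0.31, and in 7 with the arms averaged. The nucleolar genes NOP16 and DKC1 fell by 0.47 and 0.40. NOP16 had another probe set at -0.01, and CDKN1C one at 0.00.

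ATF4 and its amino acid targets fell together: 11 of 17 measured members were lower and 1 higher, with a median of -0.52. Over all genes 19.2% were lower and 15.7% higher. ATF4 itself fell by 0.28. The cystine transporter SLC7A11 fell by 0.89, its heavy chain SLC3A2 by 0.70, the transporter SLC7A5 by 0.61, asparagine synthetase (ASNS) by 0.64, the stress factor DDIT3 by 0.71 and the pseudokinase TRIB3 by 0.67. CTH, which makes cysteine, ranged over -0.08, 2.09 and 2.79 on late arrays, against 2.41, 2.66 and 2.97 on early arrays, and fell by 0.94 ± 0.16 (limma adjusted p = 9.2e-05, and 0.073 with the arms averaged). The single raised member was DDIT4, an inhibitor of mTORC1, by 0.17 (limma adjusted p = 0.0076, and 0.13 with the arms averaged), and PHGDH, which opens serine synthesis, did not pass (-0.08, limma adjusted p = 0.46). The lowest late values of CTH were those of the 48 h arrays of 2D04 (-0.08 to 0.42), against 2.16 to 2.32 on the 48 h arrays of 2D03.

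**Figure D3:**
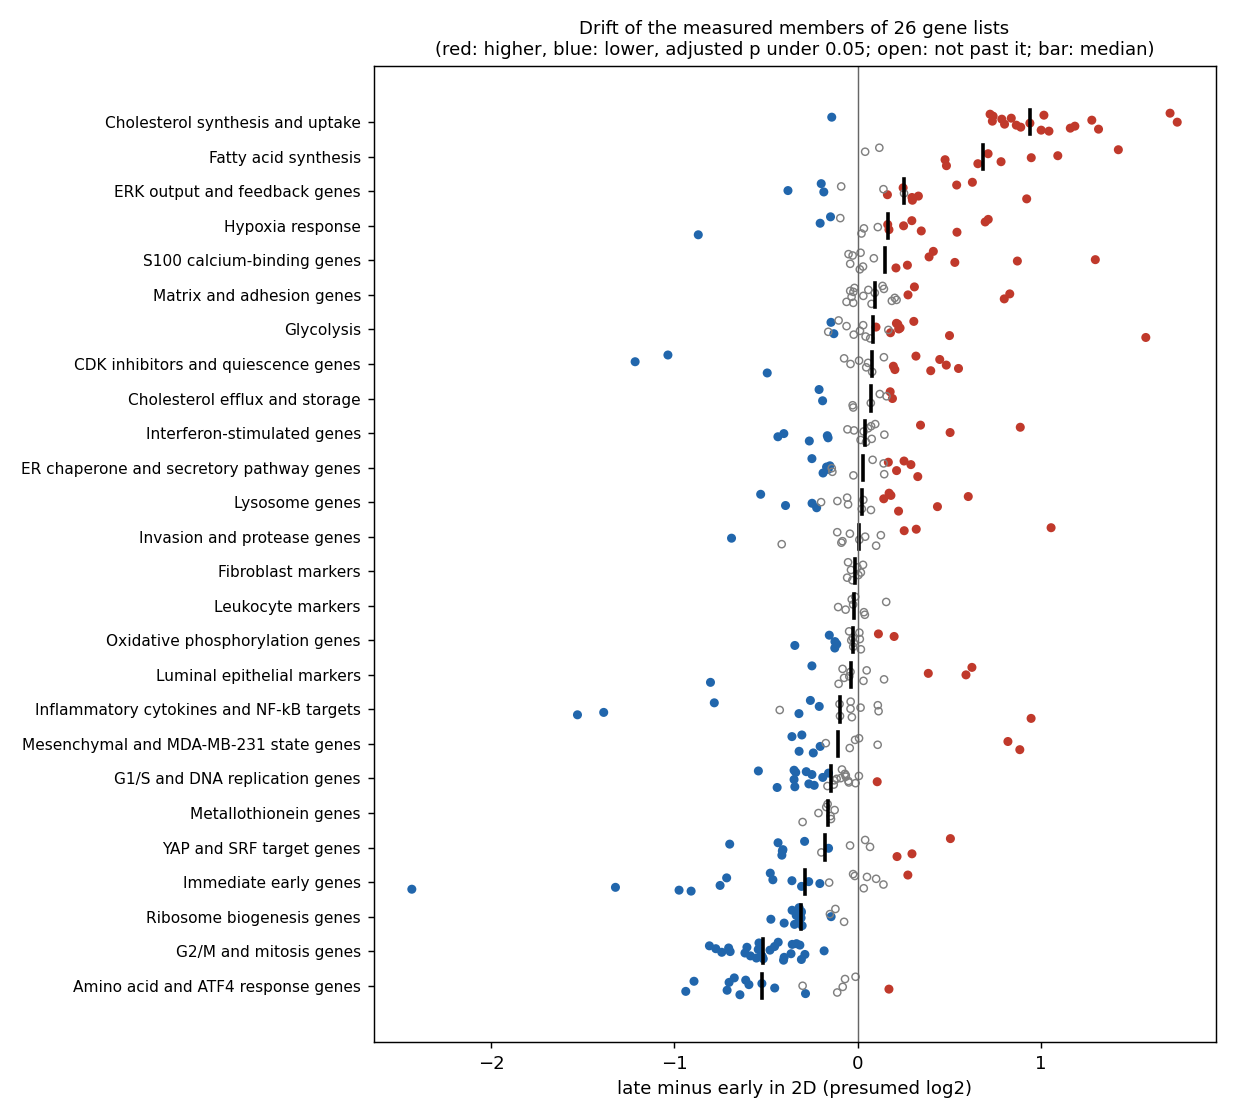
Drift (late minus early in 2D, presumed log2, horizontal axis) of the measured members of 26 gene lists (vertical axis), 1 point per gene, red where higher and blue where lower at an adjusted p under 0.05, open where not past it, with a bar at each list's median. Cholesterol and fatty acid synthesis have the highest medians, at 0.94 and 0.69, and the ATF4 and G2/M lists the lowest, both at -0.52.

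ALDOC rose by 1.57, against a median of 0.085 over the glycolysis list. Of 20 glycolysis genes 9 rose and 2 fell, where 15.7% of all genes rose and 19.2% fell. A random block left 7 higher and 1 lower, and averaging the arms 2 higher and 0 lower. In the list the neuronal enolase ENO2 rose by 0.50, the glucose transporters SLC2A3 and SLC2A1 had 0.31 and -0.14, and LDHA and GAPDH did not pass (0.01 and -0.02, limma adjusted p = 0.79 and 0.69). Of 15 hypoxia response genes 8 rose and 3 fell, with a median of 0.17, against 6 and 2 with a random block and 4 and 1 with the arms averaged. NDRG1, P4HA2 and BNIP3L rose by 0.70, 0.71 and 0.54, whereas the vascular peptide gene ADM fell by 0.87 and VEGFA by 0.15. With the arms averaged SLC2A3, SLC2A1 and VEGFA did not pass (adjusted p = 0.053, 0.30 and 0.16). BHLHE40, a circadian and hypoxia-responsive repressor outside the list, ranged over -0.54, -0.11 and 0.43 on late arrays, against -1.92, -1.25 and -0.71 on early arrays, and rose by 1.24.

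Of the 14 measured S100 genes, S100A4 included, 7 rose, 0 fell and 7 did not pass, where 15.7% of all genes rose, and 4 were higher with the arms averaged. Raised members were S100A3 by 0.87, S100A2 by 0.53 and S100A6 by 0.39, the last 2 short of the threshold with the arms averaged (adjusted p = 0.051 and 0.064). F13A1, the coagulation factor XIII A subunit, ranged over 1.50, 2.15 and 3.09 on late arrays, against 0.48, 0.81 and 1.13 on early arrays, a drift of 1.41 ± 0.06 (limma adjusted p = 1.3e-12). PLAT, the tissue plasminogen activator, ranged over 2.34, 2.98 and 3.41 on late arrays, against 1.58, 1.73 and 1.96 on early arrays, a drift of 1.26. Neither gene showed overlap between the windows. PODXL, a sialomucin of the cell surface, rose by 1.19, and ENPP1, which makes pyrophosphate, by 1.31 (0.59 on its second probe set).

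Other genes among the 15 lowest drifts were SGK1, a kinase downstream of PI3K, which fell by 1.09, the stress-induced NUPR1, which fell by 1.11, and PPP1R15A, which directs dephosphorylation of eIF2alpha and fell by 1.10. Of 12 mesenchymal and MDA-MB-231 state genes 2 rose and 5 fell, with a median of -0.11, where 15.7% of all genes rose and 19.2% fell. The 2 raised genes, and 0 lowered ones, also passed with the arms averaged. Among 8 leukocyte markers 0 passed the test in limma (1 at an unadjusted p under 0.05), with a median of -0.02, and among 8 fibroblast markers 0 passed (0 at an unadjusted p under 0.05), with a median of -0.01. Since values are centred, the levels of such markers cannot be read from them.

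The change was larger at 48 h than at 24 h. Against the early arrays, 4547 genes (38.3%) passed at 48 h and 2286 (19.2%) at 24 h. Tested directly, 2051 genes (17.3%) differed between 48 and 24 h, 807 higher (6.79%) and 1244 lower (10.5%), and 1393 of the 4138 drift genes were among them. This test counts the arms of 1 series and time as separate arrays, and it was not refitted with the arms averaged or with a random block. The higher calls made up 39.3% of the 2051 and 52.6% when each array was centred on its median (1038 higher and 937 lower). Without the untreated 24 h array of repeat 1, 1411 genes passed.

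ALDOC stood 2.05 above the early arrays at 48 h and 1.10 at 24 h (limma adjusted p of the difference 3.9e-06). Of 19 cholesterol genes 13 were higher at 48 than at 24 h and 0 lower, among them EBP with 1.48 and 0.85. ATF4 targets turned down late, with 13 of 17 lower at 48 h and medians of -0.72 at 48 h and -0.21 at 24 h. TRIB3 had -1.10 at 48 h and -0.25 at 24 h (limma adjusted p = 2.9e-05), and the transcription factor ETS1 -1.43 and -0.18 (9.1e-06). MCL1 had -1.10 at 48 h and -0.33 at 24 h (3.1e-07). Among the 26 G2/M genes 2 were lower at 48 h than at 24 h, CDC20 with -0.70 and -0.35 (limma adjusted p = 0.0063) and UBE2C, a ubiquitin-conjugating enzyme, with -0.58 and -0.29 (0.022). The proliferation factor FOXM1 was the 1 that was higher, with -0.01 at 48 h and -0.36 at 24 h (0.0046), and KIF23 did not pass (-0.76 and -0.79, limma adjusted p = 0.9). Over all genes 10.5% were lower and 6.79% higher at 48 h than at 24 h, so the G2/M counts did not exceed the all-gene shares. UBE2C and FOXM1 are named here after their values were seen.

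The drift did not differ detectably by arm. The drift of EGF minus that of control, and of DMSO-EGF minus that of EGF, passed for 0 genes each (limma; 251 and 263 genes at an unadjusted p under 0.05). LSS had drifts of 1.50 in DMSO-EGF, 1.89 in EGF and 1.85 in control, and EGR1 drifts of -2.38, -2.50 and -2.42 in the same arms. In the same fit, within each arm, 1302 genes (11%) passed in DMSO-EGF, 1178 (9.91%) in EGF and 1222 (10.3%) in control. With 4 arrays a side and arm, a p that misses the threshold does not show that the arms were alike.

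Of the 4138 drift genes, which were called on the average of both series, 3966 had the same sign in both, but many differed in size. Genes named for the highest and lowest drifts were chosen to share their sign across the series, so their agreement is no test. Among large drifts without this choice, FABP4 (1.15) and AQP3 (1.06) passed over both series but had opposite signs in 2D04 and 2D03, as given below. The drift of 2D04 differed from that of 2D03 in 2285 genes (19.2%), 1529 higher (12.9%) and 756 lower (6.36%), and 1130 of these were among the 4138 drift genes (27.3%). The higher calls made up 66.9% of the 2285, and 56.7% after quantile normalization (1277 higher and 975 lower). In separate fits 705 genes (5.93%) were higher in both series and 1094 (9.21%) lower in both, while 243 (2.04%) passed in opposite directions. The actin quality values given above also differ between the series, while the GAPDH values overlap.

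LSS rose by 1.41 in 2D04 and 2.08 in 2D03 (limma adjusted p of the difference 0.0094), and 6 of the 19 cholesterol genes rose less in 2D04. S100A4 and ALDOC rose more in 2D04, S100A4 with 2.11 and 0.49 (2.5e-06) and ALDOC with 1.80 and 1.35 (0.0023). EGR1 fell by 2.57 in 2D04 and 2.30 in 2D03 (limma adjusted p = 0.38). The G2/M list had a median of -0.25 in 2D04 and -0.73 in 2D03, with 23 of its 26 genes less lowered in 2D04. The ATF4 list went the other way, with medians of -0.67 and -0.31. So did the G1/S list, with medians of -0.305 in 2D04 and -0.0475 in 2D03. Its drift was lower in 2D04 for 13 of 26 genes and higher for 1. Ribosome biogenesis genes had medians of -0.46 in 2D04 and -0.12 in 2D03, with 9 of 15 lower in 2D04 and 0 higher.

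FABP4 and MMP1 had the widest gaps. MMP1, the interstitial collagenase, had a drift of -1.71 in 2D04 and 0.88 in 2D03 (limma adjusted p of the difference 1.6e-08). Over both series MMP1 did not pass (-0.41, limma adjusted p = 0.32). FABP4, a fatty acid carrier, had 2.48 in 2D04 and -0.18 in 2D03 (7.3e-05), and the water and glycerol channel AQP3 had 2.21 and -0.08 (1.7e-06). PTGS2, the inducible cyclooxygenase, had 0.29 and -1.85 (3.5e-05). For these genes the drift averaged over both series describes neither series.

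**Figure D4:**
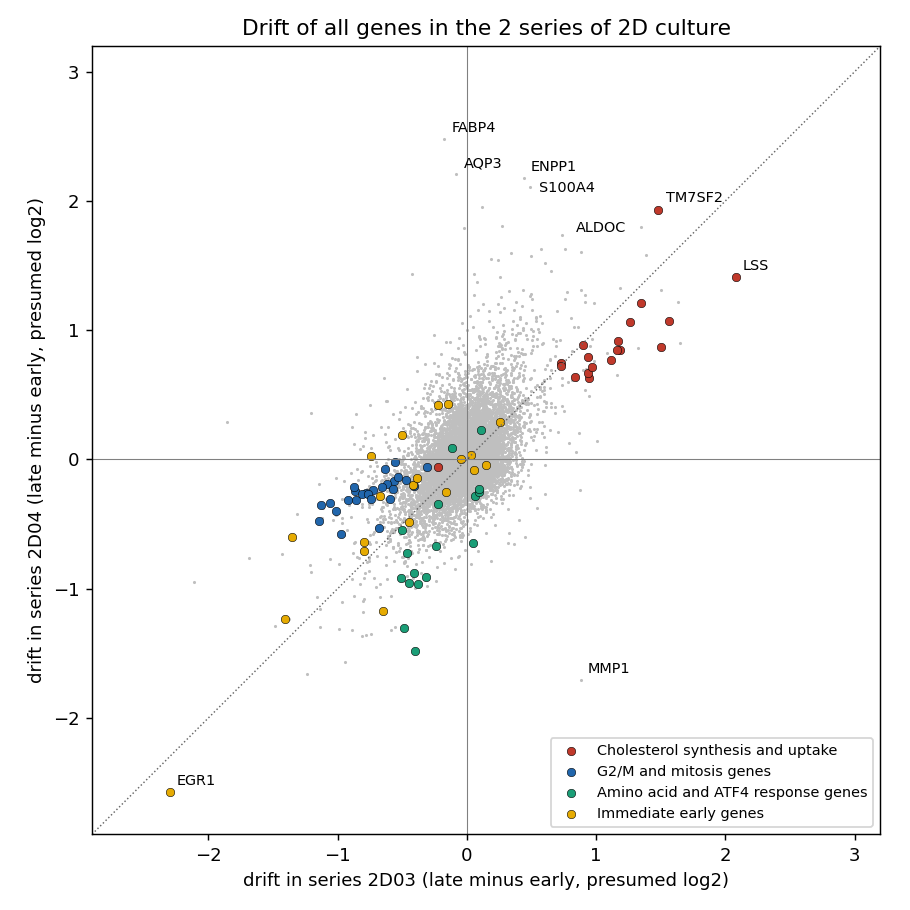
Drift of every gene (late minus early, presumed log2) in series 2D04 (vertical axis) against series 2D03 (horizontal axis), 1 grey point per gene, with 4 gene lists in colour and the dotted line marking equal drift. Cholesterol genes lie at upper right and mostly below the line, mitosis genes are lowered further in 2D03, ATF4 genes further in 2D04, and MMP1, FABP4 and AQP3 lie far from the line.

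In 3D culture over the same hours a similar number of genes changed (4151, 34.9%), but 2884 genes (24.3%) drifted differently in 2D and 3D, 1454 higher (12.2%) and 1430 lower (12%) in 2D. The 3D arrays used here came from 1 series, so culture and series cannot be told apart. The cholesterol list had medians of 0.94 in 2D and 0.62 in 3D, and 12 of its 19 genes had the higher drift in 2D. LSS rose by 1.75 in 2D and 1.05 in 3D (limma adjusted p of the difference 0.0043). ALDOC rose by 1.57 in 2D and 1.74 in 3D (limma adjusted p = 0.34).

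The immediate early genes separated the cultures. EGR1 had a drift of -2.44 in 2D and -0.04 in 3D (limma adjusted p of the difference 1.8e-11) and FOS -1.32 and -0.17 (6e-07). In 12 of the 20 immediate early genes the drift was lower in 2D than in 3D. ATF4 targets differed likewise, with median drifts of -0.52 in 2D and 0.19 in 3D, and 11 of 17 had the lower drift in 2D. TRIB3 had -0.67 and 0.89 (2.3e-10). TXNIP fell by 1.04 in 2D and rose by 1.18 in 3D (1.5e-10). CXCL8 had -1.39 in 2D and 1.22 in 3D (1.2e-07).

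Hypoxia response genes also had lower drifts in 2D, with medians of 0.17 in 2D and 1.10 in 3D. The drift was lower in 2D for 13 of 15. DDIT4 had drifts of 0.17 in 2D and 2.98 in 3D (limma adjusted p of the difference 4.9e-19), LOX -0.20 and 2.53 (5.3e-13) and ADM -0.87 and 1.04 (7.7e-13). ID1, an inhibitor of differentiation factors and BMP target, had 1.03 in 2D and -0.74 in 3D (2.4e-09), and ID3 0.45 and -1.06 (5.2e-08). G2/M medians were -0.52 in both cultures, and 24 of 26 G1/S genes had the higher drift in 2D, with medians of -0.14 and -0.57.

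With U0126 present, 4725 genes (39.8%) drifted, and for 2725 genes (22.9%) the drift with U0126 differed from that without inhibitor, 1318 higher (11.1%) and 1407 lower (11.8%). The U0126 arrays were set against all 3 arms without inhibitor, so this comparison and that with 3D share the same 24 arrays. The cholesterol list had medians of 1.05 with U0126 and 0.94 without. LSS rose by 2.23 with U0126 and 1.75 without (limma adjusted p of the difference 0.21). A higher drift with U0126 passed in 2 of the 19 genes, near the share of all genes (11.1%). These were INSIG1 with 1.60 and 0.94 (0.0027) and TM7SF2 with 2.46 and 1.71 (0.0073). SREBF1, which had not passed without inhibitor, had 0.98 with U0126 and 0.12 without (2.6e-06). SCD had 2.39 and 1.43 (0.00038), and ALDOC 2.25 and 1.57 (0.00041).

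Proliferation and ERK output genes had lower drifts under the MEK inhibitor. Levels with and without U0126 were not compared. The G2/M list had median drifts of -1.47 with U0126 and -0.52 without, and the G1/S list -1.49 and -0.14. The drift was lower with U0126 in 26 of 26 and 24 of 26 genes. MCM10, a replication initiation factor, had -3.02 with U0126 and -0.35 without (limma adjusted p of the difference 3.6e-09). ERK output genes had median drifts of -0.91 and 0.25, and 11 of 14 had the lower drift with U0126. DUSP5 had -2.15 and 0.30 (5.2e-09) and FOSL1 -2.25 and -0.38 (5.2e-11). EGR1 fell further, with -4.08 and -2.44 (9.8e-07), whereas FOS had -0.38 and -1.32 (0.0003). PLAT and F13A1 had the smaller drift with U0126, PLAT having -0.03 and 1.26 (5e-08) and F13A1 0.51 and 1.41 (2.2e-06). The largest difference was in CYP1B1, a target of the aryl hydrocarbon receptor, with 3.19 with U0126 and -1.05 without (1.2e-12), and CYP1A1, from the same pathway, had 3.69 and -0.23 (2.9e-13). Without inhibitor, the 4 probe sets of CYP1B1 spanned -1.05 to -0.09.

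**Figure D5:**
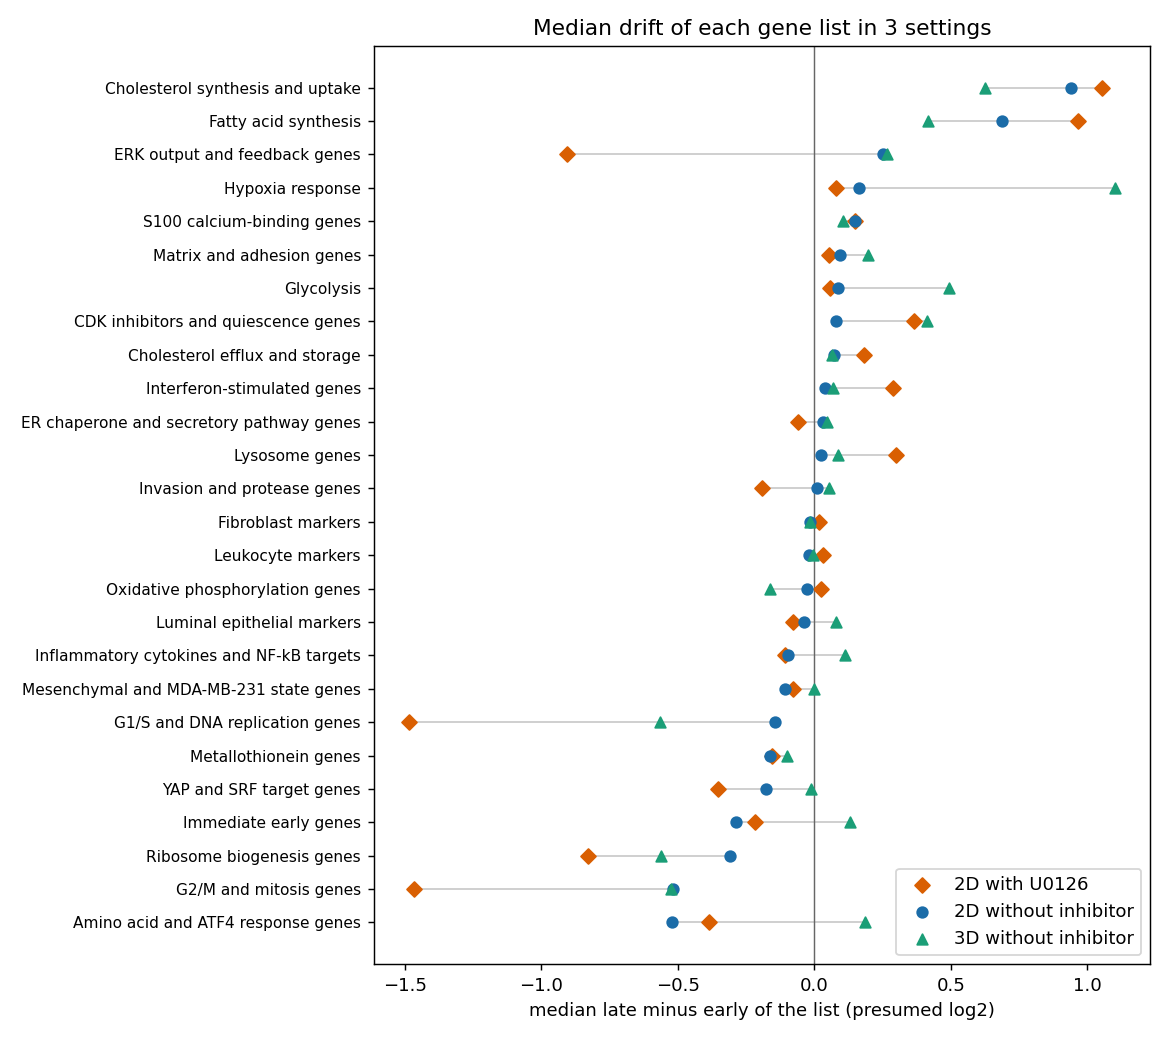
Median late minus early difference (presumed log2, horizontal axis) of each of 26 gene lists (vertical axis) in 2D with U0126 (diamonds), 2D without inhibitor (circles) and 3D without inhibitor (triangles). The cholesterol synthesis median is above 0 in all 3 settings (1.05, 0.94 and 0.62), G1/S genes are lowest with U0126 (-1.49) and hypoxia response genes are highest in 3D (1.10).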

How the data were processed

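mRNA was measured on 96 single-colour oligonucleotide arrays of MDA-MB-231 cells. The authors deposited 1 table of log2-like values per probe set, summarised with RMA per the submitters' processing notes; the base of the logarithm and the centring are not given in the sources used here, and the values (-5 to 5.7) were used unchanged as log2. The drift used 24 of the arrays, and 0 columns belonged to other samples. Of 22930 probe sets, those with 1 symbol in the platform annotation (19303) were kept, and 524 array controls, 125 with several symbols, 112 built on mouse or rat sequence and 2866 unlisted ones were left out. For each of the 11884 genes the probe set with the largest SD over all arrays was used.

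Drift was fitted with limma 3.58.1 (R 4.3.3; lmFit, eBayes with a variance trend) with a term for each of the 6 series and arm blocks and for each of 4 times, 15 residual degrees of freedom and Benjamini-Hochberg adjustment over all genes. The other comparisons used the same model with the added terms. The replicate number in the labels marks the series. Arrays of the same number deviated together from their group means in all 66 pairs of the 12 groups (correlation 0.438 to 0.819, median 0.645), so series is part of each block. The scripts were tested on simulated data.

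The comparison, its members and the gene lists were chosen with earlier results of these data known. Genes are named as follows: LSS, S100A4, ALDOC and EGR1 always, genes among the 15 highest and 15 lowest drifts with 1 sign in both series and all arms, the 5 highest and 5 lowest of each other comparison, and list members with the smallest adjusted p or a defining role. Alternatives covered normalization, centring, probe-set choice, a filter, the variance trend, array weights, the blocks, the series, the arms and each array left out.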

Additional observations from a re-analysis of the deposited data

Results flagged for a closer look

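Differences between the 2 series of 2D culture were tested with an interaction term and drew attention for LSS, S100A4 and ALDOC and for the number of genes. The drift of 2D04 minus that of 2D03 passed for 2285 genes, and was -0.67 for LSS, 1.62 for S100A4 and 0.45 for ALDOC. LSS and ALDOC had late and early arrays apart in each series, and S100A4 in 2D04 alone.

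The drift in 2D minus that in 3D passed for 2884 genes and was 0.70 for LSS and -2.39 for EGR1. The drift with U0126 minus that without inhibitor passed for 2725 genes and was 0.68 for ALDOC and -1.64 for EGR1. Both used the same 24 arrays of 2D cells without inhibitor, and 3D culture had 1 series.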

How the results depend on the processing

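Without the replicate block (arm and time terms only), 2595 genes drifted, 394 differed between 48 and 24 h, 1347 between 2D and 3D and 1375 with U0126. Averaging the arms within each series and time left 1510 drift genes, and a random block for each series and time left 2987 (correlation 0.289). Neither fit was run for the other comparisons. Fits of 1 arm alone gave 582 genes in DMSO-EGF, 917 in EGF and 1010 in control, and the control arm against its own 0 h arrays 1426; these use fewer arrays. A subset chosen after seeing the data, the 4321 genes whose several probe sets lay within 0.5 of each other, gave 1646. Leaving out each array in turn gave 3898 to 4209 drift genes, 1411 to 2087 between 48 and 24 h, 1976 to 2389 between series, 2464 to 3004 between 2D and 3D, 2185 to 2781 with U0126, and 0 to 0 for both arm differences. All other settings kept these counts within 1.5 times.

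Of the named results, 114 of 141 stayed past the threshold without the replicate block, 107 of 111 with the random block and 90 of 111 with the arms averaged. 1 reversed: SCARB1 had -0.005 as the mean of its probe sets, and the cause was not tested. Signal over background was not part of the values, so the reach for dim probe sets is unknown.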

Other observations

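SNAI2, a mesenchymal transcription factor, rose by 0.82 and CDH11 by 0.89, whereas ZEB1 fell by 0.36. Of the 12 mesenchymal and MDA-MB-231 state genes 2 rose and 5 fell. FN1 (fibronectin) rose by 0.83, COL6A1 by 0.80 and the protease inhibitor TIMP3 by 1.06. EPCAM, an epithelial adhesion molecule, fell by 0.80, while the luminal markers KRT19 and TFF3 rose by 0.59 and 0.625. FN1, COL6A1 and TIMP3 had other probe sets with drifts down to 0.12, -0.08 and 0.28. Of 19 matrix and adhesion genes 4 rose and 0 fell, and of 13 luminal markers 3 rose and 2 fell, where 15.7% of all genes rose and 19.2% fell. Among 18 interferon-stimulated genes 3 rose, including OAS1 by 0.89 and IRF9 by 0.51, and 5 fell, against 3 and 2 with a random block and 1 and 2 with the arms averaged. OAS1 did not pass with the arms averaged (adjusted p = 0.066). YAP and SRF target genes were lower in 7 of 14 cases and higher in 3, against 5 and 2 with a random block and 3 and 1 with the arms averaged. The actin-binding gene TAGLN fell by 0.70. Lysosome genes (6 of 17 higher, 4 lower), ER chaperone genes (5 of 16 higher, 5 lower), invasion genes (3 of 13 higher, 1 lower) and oxidative phosphorylation genes (2 of 15 higher, 5 lower) had medians within 0.1 of the all-gene median of -0.0075. Averaging the arms left 2 higher and 1 lower for lysosome, 0 and 1 for ER chaperone, 2 and 1 for invasion and 1 and 1 for oxidative phosphorylation genes. Metallothionein genes passed in 0 of 7 cases in limma (2 at an unadjusted p under 0.05), with medians of -0.37 in 2D04 and 0.05 in 2D03.

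Probe sets of 1 gene disagreed in places. Of 4451 genes with several probe sets, 130 had drifts spanning over 0.5, and 77 had a probe set called higher and another called lower. EIF4A1, a translation initiation helicase, had -1.45 on the probe set used and -0.16 and -0.13 on its others, and its value was already -1.07 at 4 h. EIF1 had -1.31 with the others at -0.34 to -0.20, HNRNPA1 -1.26 with the others up to -0.20, and RIMS2 -1.15 and 0.00. Among raised genes, SLCO4C1 spanned 0.17 to 1.49 and CD24 -0.13 to 1.23. These genes are among the 15 highest or lowest drifts and are given here as values only. Of the 1858 genes with 3 or more probe sets, 17 had 1 probe set lower by over 0.5 than every other and 11 had 1 higher by over 0.5.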
